A study of Scomber scombrus with 32 samples.

Results

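Atlantic mackerel muscle cells of the line Mack1, labelled p27 and pre_immortalization, were compared between a lipid loading medium (3 libraries) and a serum reduction medium (3 libraries). These are 6 of the 32 libraries of the series, which covers Mack1 at p27 and p77 in 4 conditions each and a second line, Mack2, in 10 groups altogether. The 6 libraries were set by their labels for line, stage and treatment, and no measured value entered that rule. The comparison itself was chosen with earlier results of these data known. Every annotated gene was considered. Lipid loading cells were grown until confluent and then fed on a growth medium of Leibovitz L-15 with 20% fetal bovine serum (FBS) and 1 ng/mL fibroblast growth factor 2 (FGF2), to which 10 µg/mL insulin, 0.5 mM of the phosphodiesterase inhibitor IBMX, 0.25 µM of the synthetic glucocorticoid dexamethasone and 10 µL/mL of a lipid mixture had been added. Serum reduction cells were likewise grown until confluent and then fed on L-15 with 2.5% FBS, with none of the other agents listed, a condition the labels describe as differentiation towards muscle. All 6 libraries share the cell line, the stage, the batch label and the cell type label "Muscle stem cell". Serum, FGF2, insulin, IBMX, dexamethasone and lipids differ together between the groups, so the part of each in any difference cannot be told apart. How long the cells were kept in each medium is not in the labels, so the part of time in the medium cannot be told apart either. The labels call the libraries experimental replicates and do not say that they came from separate cultures, so a p-value here reflects spread among libraries that may be only technical.

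Muscle precursor cells that leave the cell cycle switch on myogenin, fuse, and build sarcomeres with the help of dedicated myosin chaperones, whereas serum and fibroblast growth factors keep them dividing. Insulin, a glucocorticoid and IBMX, which raises cyclic AMP, make up the classical mixture used to turn mesenchymal precursors into fat cells, a change driven by the nuclear receptor gene pparg and the factor gene cebpa. Cells that take up fatty acids store them as triglyceride in lipid droplets, whose surface is covered by perilipins.

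Values are counts of a gene per 1000000 counts of the library (CPM), after TMM scaling of the raw counts, given as mean ± SD with n = 3 in each group. Differences are log2 fold changes of lipid loading over serum reduction ± standard error, tested with edgeR's quasi-likelihood test and called at an adjusted p below 0.05. The standard error was derived from that test, as the absolute log2 difference divided by the square root of the F statistic. It is therefore approximate. Total counts ran from 21954774 to 23255401 in the lipid loading libraries and from 29740939 to 32012966 in the serum reduction libraries, so depth differs between the groups without overlap. Counts on ribosomal RNA genes made up 0.814 to 1.44% with lipid loading and 0.719 to 0.901% with serum reduction. The first principal component of the 6 libraries held 77.8% of the variance and separated the media, and the second (6.2%) set lipid loading library 1 apart from the other 5. All 13 muscle markers looked for were tested, and their summed level was 7072 to 8581 CPM with lipid loading and 23541 to 31677 CPM with serum reduction. In bulk libraries, fewer cells of a type and less RNA per cell cannot be told apart. The gene pax7a, whose protein defines muscle stem cells, was at 0.562 CPM with lipid loading and 0.405 CPM with serum reduction, so this defining marker of the labelled cell type was under 1 CPM in both media. The neuron markers tested summed to 2.33 to 3.67 CPM with lipid loading and 2.87 to 3.17 CPM with serum reduction, and 11 of the other 16 markers, among them elavl3 and neurod1, had no count in the 6 libraries. The fat cell markers tested (pparg, cebpa, fabp4a, lipea and lipeb) summed to 22.5 to 27.5 CPM with lipid loading and 18.5 to 19.7 CPM with serum reduction, none of the 5 was called, and cfd and fabp4b had no count.

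Of 15683 genes tested, 4307 (27.5%) were higher and 4338 (27.7%) were lower with lipid loading, together 55.1% of the genes tested, and 1731 (11.0%) were higher and 1976 (12.6%) lower by 2-fold or more. The 2 groups did not overlap for 65.2% of genes, 33.3% in the higher direction and 32.0% in the lower direction. The median log2 difference over all genes tested was 0.04, and it was 0.17 where libraries were scaled by their total counts in place of TMM, a shift of 0.13. Counts for gene lists below are to be read against these shares. The lists were chosen with earlier results of these data known, so such a comparison describes them and is not independent support. Where every member on the smaller side of a list is named, those that the rule for named genes did not pick were named after their values were seen. Genes whose names end in a and b are often duplicated copies, and the sources used here do not say how reads of near-identical copies were divided.

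**Figure D1:**
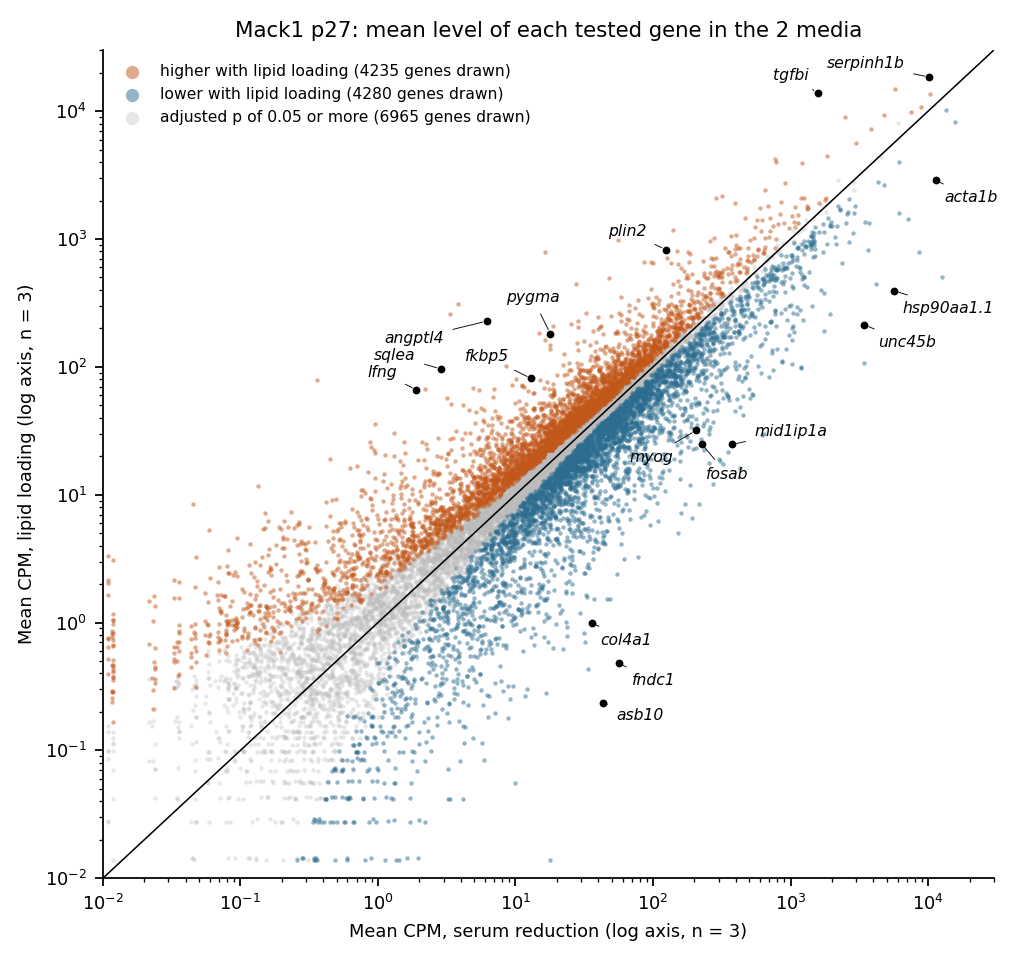
Mean CPM of each tested gene with lipid loading (vertical log axis) against serum reduction (horizontal log axis), n = 3 libraries each, with called genes coloured and the line of equal levels in black. 203 genes at 0 in either group or in both are not drawn. Among the labelled genes, plin2 and angptl4 lie above the line and acta1b, unc45b and mid1ip1a below it.

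The droplet coat gene plin2 and a lipoprotein lipase gene were higher with lipid loading, while fatty acid synthesis genes were more often lower than higher. The perilipin gene plin2, whose protein coats lipid droplets, measured 858, 804 and 818 CPM in the lipid loading libraries, against 124, 120 and 129 CPM in the serum reduction libraries. All lipid loading libraries were far above all serum reduction libraries in plin2, and the log2 difference was 2.73 ± 0.13 (adjusted p = 1.28e-15). Lipoprotein lipase, which frees fatty acids from lipoproteins outside the cell, is encoded by lpla, which measured 1485, 1502 and 1381 CPM in the lipid loading libraries, against 510, 470 and 429 CPM in the serum reduction libraries. Every lipid loading library was again above every serum reduction library (log2 difference 1.63 ± 0.11). The lipase inhibitor angptl4 measured 223, 226 and 237 CPM in the lipid loading libraries, against 3.78, 7.41 and 7.38 CPM in the serum reduction libraries. The groups did not come near each other in angptl4, and the log2 difference was 5.20 ± 0.17. The fatty acid carrier gene fabp3 measured 2095 ± 113 CPM with lipid loading and 1260 ± 47 CPM with serum reduction (log2 difference 0.73 ± 0.07).

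Among genes of triglyceride synthesis and lipid droplets, increases and decreases were mixed. Of 22 tested genes of the triglyceride synthesis and lipid droplets list, 6 rose and 8 fell, with a median log2 difference of 0.16, so its share of higher members (27.3%) was near that of all genes. With scaling by total counts, and in a fit of the 12 p27 libraries, 9 rose and 7 fell. Besides plin2, those that rose were pnpla3, a droplet-bound lipase-like protein (log2 difference 2.91 ± 0.36), gpat3, for the first acylation of glycerol phosphate (104 CPM with lipid loading, 38.9 CPM with serum reduction, log2 difference 1.43 ± 0.11), agpat5, an acyltransferase of the next step (0.79 ± 0.12), mogat3a, a monoacylglycerol acyltransferase (0.62 ± 0.13), and pnpla2, the adipose triglyceride lipase, at only 1.1 CPM with lipid loading and 0.148 CPM with serum reduction. The call for pnpla2 was lost without lipid loading library 1 (adjusted p = 0.0831) and without serum reduction library 3 (adjusted p = 0.0699). The droplet coat gene plin3 fell (23.3 CPM with lipid loading, 86.8 CPM with serum reduction, log2 difference -1.90 ± 0.13). The genes gpam, the mitochondrial glycerol phosphate acyltransferase (-0.77 ± 0.12), and fitm2, for droplet budding from the endoplasmic reticulum (-0.89 ± 0.14), were also lower. In the uptake, binding and activation list, 5 of 19 tested members rose (among them angptl4, lpla, fabp3 and acsl2) and 8 fell, among them the acyl-CoA synthetase acsl4a (-0.65 ± 0.08) and the lysolipid transporter mfsd2ab (-0.89 ± 0.10). Thus 26.3% of that list were higher, near the 27.5% of all genes, and 42.1% were lower against 27.7%. Its median log2 difference was 0.13, and was negative with any single library but lipid loading library 1 left out (-0.03 to -0.11). The summed level of the list was 4498 to 4775 CPM with lipid loading and 2359 to 2608 CPM with serum reduction. Much of that sum came from fabp3 and lpla, so it does not describe most members.

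Of 24 tested genes of the fatty acid synthesis and desaturation list, 3 rose and 14 fell, with a median log2 difference of -0.33, and with scaling by total counts 5 rose and 9 fell. One that fell was mid1ip1a, known in mammals as a partner that activates acetyl-CoA carboxylase, which measured 26.9, 24.2 and 22.9 CPM in the lipid loading libraries, against 313, 415 and 399 CPM in the serum reduction libraries. Every lipid loading library was far below every serum reduction library in mid1ip1a (log2 difference -3.93 ± 0.12, adjusted p = 1.13e-18). The lipogenic regulator srebf1 measured 82.9 ± 4.44 CPM with lipid loading and 246 ± 6.9 CPM with serum reduction (log2 difference -1.57 ± 0.09). Differences were small for fatty acid synthase itself, fasn (220 CPM with lipid loading, 277 CPM with serum reduction, log2 difference -0.33 ± 0.13), for acaca, acetyl-CoA carboxylase (-0.36 ± 0.11), and for the desaturase genes scd (-0.29 ± 0.11) and scdb (-0.23 ± 0.08), and scaling by total counts ended all 4 of these calls (adjusted p = 0.235, 0.0959, 0.244 and 0.321). The fasn call was also lost without lipid loading library 2 or 3 or serum reduction library 1 or 2 (adjusted p of 0.0687 to 0.142). The call of scd was lost without lipid loading library 2 or 3 or serum reduction library 2 (0.0814 to 0.121), and that of scdb without lipid loading library 2 or 3 or serum reduction library 3 (0.0611 to 0.0904). The citrate lyase gene aclya was not called (-0.21 ± 0.10, adjusted p = 0.0839), but passed without serum reduction library 1 (adjusted p = 0.0491) and in 4 fits with other libraries left out or a replicate block (adjusted p of 0.0228 to 0.0351). Enzymes of the elongation cycle fell in part (hacd1 -1.79 ± 0.12, tecra -2.50 ± 0.26, tecrb -1.25 ± 0.11). The 3 members that rose were hacd2 (1.16 ± 0.12), the elongase elovl1b (0.91 ± 0.12) and the low desaturase-family gene fads6, which had no count with serum reduction and was at least 22.9-fold higher. Such a bound sets the group with no count at a floor of 3 counts over the group.

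Sterol synthesis was the metabolic list with the highest share of higher members. Of 25 tested genes of the sterol synthesis list, 19 rose and 2 fell, with a median log2 difference of 1.06, and its summed level was 1274 to 1326 CPM with lipid loading and 663 to 689 CPM with serum reduction. Squalene epoxidase, an early committed step towards cholesterol, is encoded by sqlea, which measured 100, 92.7 and 95.7 CPM in the lipid loading libraries, against 2.34, 3.14 and 3.12 CPM in the serum reduction libraries. The groups were far apart, with a log2 difference of 5.07 ± 0.23 (adjusted p = 4.38e-16). Later steps rose as well: tm7sf2 (3.47 ± 0.22), msmo1 (2.32 ± 0.13) and dhcr7 (1.80 ± 0.09), as did acat2, which joins the first acetyl units (1.82 ± 0.09). The upstream control enzymes rose as well, with hmgcs1 at 0.77 ± 0.10 and hmgcra, the statin target, at 0.60 ± 0.11. The sterol sensor gene insig1 (0.78 ± 0.13) and the low-density lipoprotein receptor gene ldlrb (0.28 ± 0.11) were also higher. The ldlrb call was lost without lipid loading library 1 or 3 or serum reduction library 2 or 3 (adjusted p of 0.0687 to 0.129). Among the 2 members that fell was ldlra, with no count with lipid loading and at least 9.24-fold lower. Of 14 tested apolipoprotein and lipoprotein genes, 6 rose, among them the cholesterol exporter abca1b (21.1 CPM with lipid loading, 1.56 CPM with serum reduction, log2 difference 3.76 ± 0.31) and the cholesterol esterifying enzyme soat1 (0.93 ± 0.24), and 1 fell, mylipa, a ligase that marks lipoprotein receptors for breakdown (-1.98 ± 0.13).

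Oxidation genes were mixed. Of 31 tested genes of the fatty acid oxidation list, 5 rose and 14 fell, with a median log2 difference of -0.18. With scaling by total counts 8 rose and 9 fell (median -0.05), and 3 rose without lipid loading library 1 or without serum reduction library 2. The carnitine transferase genes cpt1ab and cpt1b, for fatty acid entry into mitochondria, were higher, cpt1ab at 0.57 ± 0.08 and cpt1b at 0.83 ± 0.29, the cpt1b call being lost without lipid loading library 1 (adjusted p = 0.0565) or serum reduction library 2 (adjusted p = 0.0727). Also higher were acaa1 (0.32 ± 0.13), acadm (0.35 ± 0.07) and decr1 (0.78 ± 0.14). The mitochondrial co-activator ppargc1a fell (4.4 CPM with lipid loading, 19.9 CPM with serum reduction, log2 difference -2.18 ± 0.16) and acadsb, for branched-chain acyl groups, fell (-1.48 ± 0.10). The acaa1 call was lost with any single library but lipid loading library 3 left out (adjusted p of 0.072 to 0.141). The pyruvate dehydrogenase kinase pdk4, a common fasting and fatty acid response gene, was at 18.4 CPM with lipid loading and 16.9 CPM with serum reduction and was not called (adjusted p = 0.615). The regulators that define fat cells were not called. The receptor gene pparg measured 0.583, 0.709 and 0.954 CPM in the lipid loading libraries, against 0.909, 0.425 and 0.251 CPM in the serum reduction libraries. These ranges overlap, and the log2 difference was 0.50 ± 0.48 (adjusted p = 0.401). The factor cebpa was at 2.28 CPM with lipid loading and 1.46 CPM with serum reduction (adjusted p = 0.541), the fatty acid binding gene fabp4a at 0.568 CPM with lipid loading and 0.734 CPM with serum reduction (adjusted p = 0.625). The hormone-sensitive lipase genes lipea (adjusted p = 0.173) and lipeb (adjusted p = 0.102) also missed the threshold, although lipeb passed it with scaling by total counts (adjusted p = 0.0242) and in fits of the 12 p27 libraries (adjusted p = 0.0467) or the 6 libraries alone (adjusted p = 0.0471). Of the early adipogenic factors, cebpd rose (35 CPM with lipid loading, 6.76 CPM with serum reduction, log2 difference 2.37 ± 0.19) and cebpb did not pass the test (0.36 ± 0.24, adjusted p = 0.2). The cebpb difference did pass without p77 serum starvation library 1 (adjusted p = 0.0165). It also passed in fits of the 12 p27 libraries (adjusted p = 0.0121) or the 6 libraries alone (adjusted p = 0.0147).

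**Figure D2:**
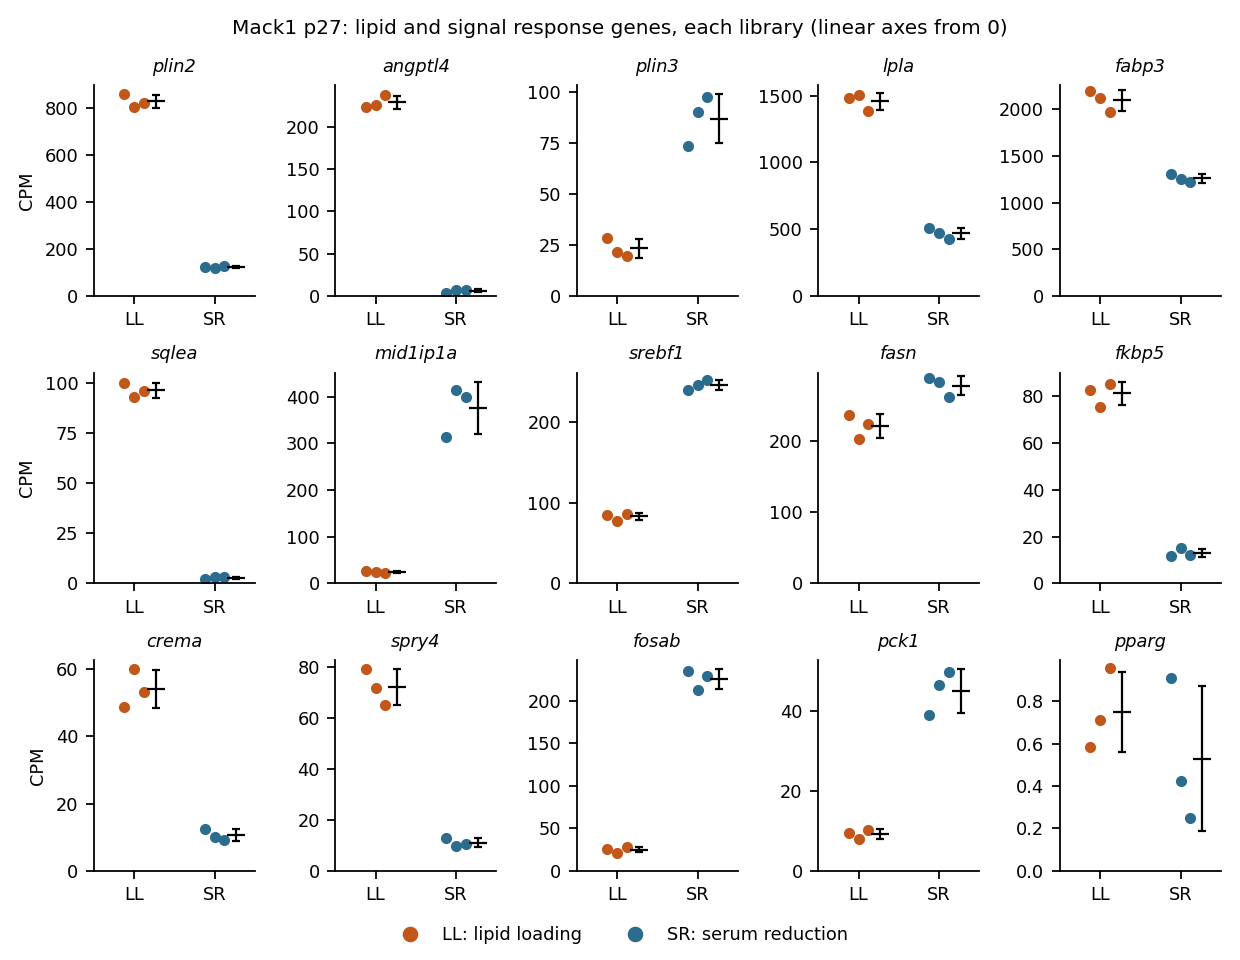
CPM of 15 lipid and signal response genes in each library, with lipid loading (LL) left of serum reduction (SR), black bars giving mean ± SD (n = 3), and linear axes from 0. The 2 groups do not overlap in any panel except pparg, where both are below 1 CPM.

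Genes known as direct targets of glucocorticoid signalling were mostly higher with lipid loading. Of 39 tested genes of the glucocorticoid response list, 22 rose and 11 fell, with a median log2 difference of 0.47, that is 56.4% higher against 27.5% of all genes. The co-chaperone gene fkbp5, a widely used glucocorticoid marker, measured 82.5, 75.5 and 85.3 CPM in the lipid loading libraries, against 11.8, 15 and 12.1 CPM in the serum reduction libraries. Every lipid loading library was far above every serum reduction library, and the log2 difference was 2.64 ± 0.11 (adjusted p = 1.75e-16). Others that rose were tsc22d3, an anti-inflammatory leucine zipper gene (1.83 ± 0.13), ddit4, an inhibitor of mTOR (335 CPM with lipid loading, 78.3 CPM with serum reduction, log2 difference 2.1 ± 0.10), klf9 (2.43 ± 0.52), the metallothionein mt2 (4.06 ± 0.43), the kinase gene sgk1 (1.34 ± 0.11), the secreted protein gene crispld2 (1.98 ± 0.10) and nfkbiaa, an inhibitor of NF-kappa-B (2.6 ± 0.13). At low levels, the zinc finger gene zbtb16a (1.02 CPM with lipid loading, 0.0828 CPM with serum reduction) rose, and hsd11b2, which inactivates cortisol, rose, its ratio of lipid loading over serum reduction counts per total being 18.8 (6.04 to 94.5), with a 95% interval for counting error only in brackets. Not all members moved this way. The receptor gene itself, nr3c1, was lower (36.2 CPM with lipid loading, 73.3 CPM with serum reduction, log2 difference -1.02 ± 0.10). The gluconeogenic gene pck1 measured 9.49, 7.88 and 10.3 CPM in the lipid loading libraries, against 38.8, 46.4 and 49.5 CPM in the serum reduction libraries, so all lipid loading libraries were lower. The tyrosine aminotransferase gene tat (-3.55 ± 0.14), the clock gene per1b (-1.43 ± 0.27) and the insulin receptor substrate gene irs2b (-0.96 ± 0.11) also fell.

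Cyclic AMP response genes split evenly, 10 higher and 10 lower of 41 tested (median -0.16). These shares, 24.4% in each direction, were near those of all genes (27.5% higher and 27.7% lower). Several feedback genes were among those that rose. The repressor gene crema measured 48.8, 60 and 53.2 CPM in the lipid loading libraries, against 12.5, 9.96 and 9.17 CPM in the serum reduction libraries, and every lipid loading library was above every serum reduction library. The log2 difference was 2.36 ± 0.19 for crema, 3.59 ± 0.26 for the salt-inducible kinase sik1, 2.00 ± 0.14 for pde4ba and 2.41 ± 0.19 for pde8a, the last pair being phosphodiesterases that break down cyclic AMP. The immediate early gene fosab measured 25.6, 21.4 and 28 CPM in the lipid loading libraries, against 235, 213 and 229 CPM in the serum reduction libraries, all lipid loading libraries being lower (log2 difference -3.17 ± 0.14). The early growth response gene egr1 also fell (382 CPM with lipid loading, 916 CPM with serum reduction, log2 difference -1.26 ± 0.13). The orphan receptor nr4a1 was not called (adjusted p = 0.645), and fosl2 rose (1.23 ± 0.10).

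Feedback genes of fibroblast growth factor and MAP kinase signalling were mostly higher with lipid loading. Of 21 tested genes of the growth factor and MAP kinase feedback list, 13 rose and 4 fell, with a median log2 difference of 0.53. The summed level of the list was nevertheless lower, at 1360 to 1405 CPM with lipid loading and 1599 to 1773 CPM with serum reduction. Sprouty proteins damp this pathway, and spry4 measured 79.1, 71.9 and 64.9 CPM in the lipid loading libraries, against 13, 9.77 and 10.5 CPM in the serum reduction libraries. The ranges lie far apart, with a log2 difference of 2.70 ± 0.14 (adjusted p = 4.93e-15). Also higher were spry1 (1.80 ± 0.11), the phosphatase gene dusp6 (0.90 ± 0.08), the factors etv4 (1.06 ± 0.20) and etv5a (0.43 ± 0.08), the receptors fgfr1a (1.07 ± 0.11) and fgfr4 (1.56 ± 0.19), and ccnd1, the cyclin that opens the cell cycle (1.33 ± 0.16). The 4 that fell were fosab, egr1, myca (-1.46 ± 0.48) and the growth factor gene fgf7, whose ratio of serum reduction over lipid loading counts per total was 35.1 (5.97 to 1417), with its 95% interval in brackets. In the insulin and insulin-like growth factor list, 16 of 38 rose and 10 fell. The growth factor gene igf2b (64.3 CPM with lipid loading, 19 CPM with serum reduction, log2 difference 1.76 ± 0.20) and deptor, an inhibitor of mTOR (3.49 ± 0.40), were higher. The adaptor gene grb14, which damps the insulin receptor (-2.18 ± 0.23), and foxo3b, a factor that insulin signalling keeps out of the nucleus (-0.96 ± 0.12), were lower.

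Clock genes were lower on balance, with 16 of 31 tested members down and 5 up (median -0.41). The light- and clock-driven factor genes dbpa (-2.32 ± 0.26), tefa (-0.86 ± 0.07) and ciarta (-1.58 ± 0.19) fell, and the members that rose were dbpb (0.31 ± 0.10), nr1d2a (0.46 ± 0.10), nfil3 (0.57 ± 0.10), bhlhe41 (1.32 ± 0.50) and hlfa (1.86 ± 0.40). The dbpb call was lost without lipid loading library 2 (adjusted p = 0.0533) or serum reduction library 2 (adjusted p = 0.0967), and that of bhlhe41 without lipid loading library 1 or 3 or serum reduction library 1 or 3 (adjusted p of 0.0531 to 0.11). Sampling times are not in the labels. In the retinoid and thyroid list, 8 of 17 rose, among them dhrs3b, which reduces retinal (1.36 ± 0.17), and the deiodinase dio1 (0.61 ± 0.08). The 4 that fell were the receptor genes raraa (-0.92 ± 0.14) and rxrgb (-0.69 ± 0.23) and the retinoic acid carriers crabp2a (-0.85 ± 0.29) and crabp2b (-0.58 ± 0.16). The crabp2a call was lost without lipid loading library 2 or serum reduction library 2 or 3 (adjusted p of 0.0548 to 0.0766), and that of rxrgb without lipid loading library 2 (adjusted p = 0.0559).

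Most of the muscle structural genes tested were lower with lipid loading. Myogenin, the factor that starts terminal differentiation, is encoded by myog, which measured 33.5, 28.9 and 33.2 CPM in the lipid loading libraries, against 200, 211 and 204 CPM in the serum reduction libraries. Every lipid loading library was far below every serum reduction library (log2 difference -2.69 ± 0.18, adjusted p = 1.62e-12). The earlier factor myod1 went the other way, with 44.4, 46.6 and 40.9 CPM in the lipid loading libraries, against 31.8, 32.8 and 30.7 CPM in the serum reduction libraries. The groups did not overlap, but the log2 difference was only 0.47 ± 0.09. The precursor factor myf5 was higher at a low level (1.54 CPM with lipid loading, 0.127 CPM with serum reduction, log2 difference 3.56 ± 0.72). The marker of quiescent satellite cells, pax7a, was at 0.562 CPM with lipid loading and 0.405 CPM with serum reduction and was not called (adjusted p = 0.637). The late co-factor genes mef2aa (-2.07 ± 0.10) and mef2cb (-0.67 ± 0.07) fell.

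Sarcomeres are the repeating units that let muscle contract, and most of their genes fell. Of 72 tested genes of the sarcomere list, 9 rose and 55 fell, with a median log2 difference of -2.03, and 53 of the 55 fell by 2-fold or more. The summed level of the list was 9745 to 11355 CPM with lipid loading and 31230 to 41003 CPM with serum reduction. The skeletal actin gene acta1b measured 3292, 2647 and 2714 CPM in the lipid loading libraries, against 9354, 11718 and 12992 CPM in the serum reduction libraries, and serum reduction library 1 was the lowest of its group yet far above all lipid loading libraries. Thin filament genes fell, with tnnt3a at -2.12 ± 0.22, tpm2 at -2.04 ± 0.16, tnnc2.2 at -2.35 ± 0.24 and the ruler protein neb at -3.06 ± 0.20. Thick filament and M-band genes fell too, with mybpc3 at -4.51 ± 0.20, myom3 at -4.93 ± 0.18, myom1b at -3.42 ± 0.18 and the light chain gene mylpfb at -1.86 ± 0.15. The giant spring protein genes ttn.1 (-1.67 ± 0.14) and ttn.2 (-2.02 ± 0.17), the Z-disc genes actn3b (-2.88 ± 0.14) and myot (-2.58 ± 0.11), and the repair protein gene xirp2a (-4.21 ± 0.17) were lower as well. The actin copy acta1a (220 CPM with lipid loading, 244 CPM with serum reduction, adjusted p = 0.368) and the light chain copy mylpfa (adjusted p = 0.85) were not called. The 9 members that rose, named after their values were seen, were tnnt1, tnnc1a, tnnt2a, mybpc2a, mybpc2b, nebl, pdlim5b, pdlim7 and flncb, of which the slow and cardiac troponin genes tnnt1 (8.34 CPM with lipid loading, 2.22 CPM with serum reduction, log2 difference 1.91 ± 0.37) and tnnc1a (4.34 CPM with lipid loading, 1.35 CPM with serum reduction, 1.68 ± 0.69) and the myosin-binding gene mybpc2a (7.66 CPM with lipid loading, 1.29 CPM with serum reduction, 2.57 ± 0.45) stayed below 10 CPM. The tnnc1a call was lost with any 1 of the 6 libraries left out (adjusted p of 0.0674 to 0.11).

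Genes of calcium handling and of the nerve contact were mostly lower too. Of 27 tested genes of the calcium handling and excitation-contraction coupling list, 2 rose and 21 fell, with a median log2 difference of -2.23. The calcium pump gene atp2a1 measured 67.2 ± 6.8 CPM with lipid loading and 500 ± 85.5 CPM with serum reduction (log2 difference -2.90 ± 0.14), the release channel gene ryr1b had a log2 difference of -2.19 ± 0.14, and the calcium store gene casq1b (-1.79 ± 0.12), the sarcoplasmic protein gene srl (-2.73 ± 0.11) and cav3, for muscle caveolae (-2.51 ± 0.08), were lower too. The 2 members that rose were asph (1.04 ± 0.09) and the potassium channel subunit gene kcne4 (6.35 ± 0.71). Of 21 tested genes of the neuromuscular junction list, 1 rose and 18 fell, with a median log2 difference of -1.58. The acetylcholine receptor subunits chrna1 (-1.11 ± 0.12), chrnd (-2.01 ± 0.14) and chrne (-2.80 ± 0.18), the clustering protein gene rapsn (-2.81 ± 0.42), dystrophin itself, dmd (-1.94 ± 0.15), and its partner dtna (-3.64 ± 0.14) fell. The nerve-derived organiser agrn rose (0.91 ± 0.19).

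Muscle chaperones that fold myosin were lower, while the related gene unc45a rose. The myosin chaperone gene unc45b measured 238, 193 and 208 CPM in the lipid loading libraries, against 2957, 3544 and 3830 CPM in the serum reduction libraries. Its partner hsp90aa1.1, the muscle Hsp90 of zebrafish, measured 448, 360 and 375 CPM in the lipid loading libraries, against 4812, 5903 and 6160 CPM in the serum reduction libraries. For both, all lipid loading libraries were far below all serum reduction libraries, with log2 differences of -4.02 ± 0.12 and -3.83 ± 0.19. The methyltransferase genes that work with them in zebrafish muscle, smyd1a (-3.23 ± 0.16) and smyd1b (-3.27 ± 0.11), fell alongside, and the paralogue hsp90aa1.2 had a smaller difference (374 CPM with lipid loading, 490 CPM with serum reduction, log2 difference -0.39 ± 0.09). Of 46 tested genes of the myogenic factors and cell fusion list, 16 rose and 22 fell, with a median log2 difference of -0.31. The kelch gene klhl31, required for muscle in zebrafish, was among the lower ones (-3.07 ± 0.11) while the integrin gene itgb1a was among the higher ones (1.02 ± 0.08).

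Energy genes of muscle went both ways. Of 53 tested genes of the glycolysis and glycogen list, 20 rose and 23 fell, with a median log2 difference of -0.07. The creatine kinase genes ckma (1426 CPM with lipid loading, 7164 CPM with serum reduction, log2 difference -2.33 ± 0.27) and ckmb (-1.36 ± 0.23), the phosphofructokinase gene pfkma (-2.54 ± 0.14), the glycogen enzyme genes gbe1b (-1.46 ± 0.11) and gys1 (-0.84 ± 0.11) and pfkfb3 (-1.58 ± 0.11) fell. The muscle glycogen phosphorylase gene pygma, which releases glucose from glycogen, measured 222, 165 and 158 CPM in the lipid loading libraries, against 11.7, 19.7 and 22.3 CPM in the serum reduction libraries. All lipid loading libraries were higher, with library 1 the highest, and the log2 difference was 3.34 ± 0.17. The phosphoglycerate mutase gene pgam2 (2.12 ± 0.29), gapdh (0.87 ± 0.19), the muscle enolase gene eno3 (0.75 ± 0.20) and the mitochondrial creatine kinase gene ckmt2a (2.95 CPM with lipid loading, 0.127 CPM with serum reduction, log2 difference 4.49 ± 0.76) also rose. Neither aldoab (adjusted p = 0.167) nor ldha (adjusted p = 0.0917) passed the test, but ldha passed with scaling by total counts (adjusted p = 0.00135) and with a filter on mean CPM (adjusted p = 0.0382), and aldoab in fits of the 6 libraries alone (adjusted p of 0.0131 and 0.0286).

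**Figure D3:**
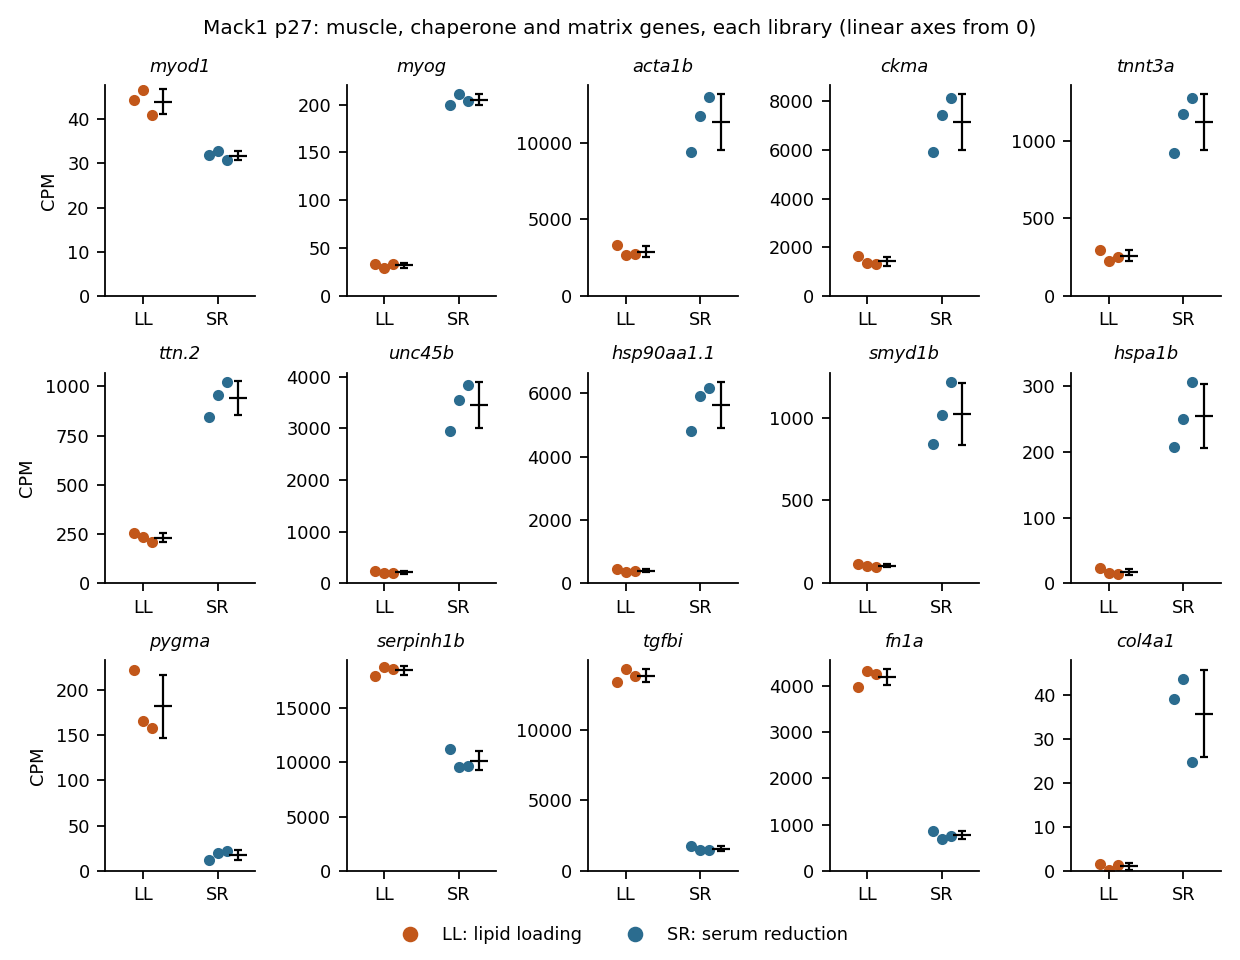
CPM of 15 muscle, chaperone and matrix genes in each library, with lipid loading (LL) left of serum reduction (SR), black bars giving mean ± SD (n = 3), and linear axes from 0. No panel shows overlap between the groups, and myod1, pygma, serpinh1b, tgfbi and fn1a are the 5 that are higher with lipid loading.

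Mitochondrial genes were mostly lower. Of 68 tested genes of the respiratory chain and citrate cycle list, 2 rose and 58 fell, with a median log2 difference of -0.76, or 85.3% lower against 27.7% of all genes. Those that fell included the citrate cycle gene idh2 (-1.92 ± 0.08), the pyruvate dehydrogenase subunits dlat (-1.23 ± 0.07) and pdha1a (-1.14 ± 0.08), and the succinate dehydrogenase subunits sdha (-0.75 ± 0.08) and sdhb (-1.11 ± 0.14). The 2 that rose were pdha1b (0.57 ± 0.09) and got1 (1.2 ± 0.33).

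Genes of the heat shock and protein folding list were mostly lower, and those of the endoplasmic reticulum folding list mostly higher. Of 40 tested genes of the heat shock and protein folding list, 5 rose and 26 fell, with a median log2 difference of -0.69. The inducible Hsp70 gene hspa1b measured 17.8 ± 4.27 CPM with lipid loading and 255 ± 48.8 CPM with serum reduction (log2 difference -3.84 ± 0.17), and hspb8 (-2.49 ± 0.10), its partner bag3 (-2.53 ± 0.12), the constitutive Hsp70 gene hspa8b (-2.43 ± 0.10) and the small heat shock gene hspb1 (-1.22 ± 0.14) fell. The 5 that rose were serpinh1a, serpinh1b, dnajb6a, unc45a and hspa13. Of these the collagen chaperone gene serpinh1b measured 17948, 18823 and 18619 CPM in the lipid loading libraries, against 11208, 9608 and 9685 CPM in the serum reduction libraries, all lipid loading libraries being higher (log2 difference 0.86 ± 0.08). Of 37 tested genes of the endoplasmic reticulum folding list, 28 rose and 4 fell, with a median log2 difference of 0.60. The disulfide isomerase genes pdia5 (0.90 ± 0.08) and pdia6 (0.83 ± 0.09), calr, calreticulin (1.07 ± 0.09), creld2 (1.18 ± 0.11) and dnajb11 (0.88 ± 0.09) rose. The 4 that fell were the stress markers hspa5 (-0.41 ± 0.08) and xbp1 (-0.55 ± 0.07), with dnajb9a (-0.83 ± 0.14) and atf6 (-0.16 ± 0.06). The atf6 call was lost without lipid loading library 1 or 3 or serum reduction library 2 or 3 (adjusted p of 0.0572 to 0.0929) and with scaling by total counts (adjusted p = 0.728).

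Amino acid and integrated stress response genes were mostly lower. Of 32 tested genes of the amino acid and integrated stress response list, 2 rose and 23 fell, with a median log2 difference of -0.86. Asparagine synthetase, a target of the factor ATF4, is encoded by asns, which measured 1411, 1370 and 1322 CPM in the lipid loading libraries, against 3172, 3505 and 3697 CPM in the serum reduction libraries. The groups did not overlap, and the log2 difference was -1.34 ± 0.08 (adjusted p = 1.11e-13). The factor genes atf4a (-0.70 ± 0.09), atf4b (-0.68 ± 0.10) and ddit3 (-1.93 ± 0.11), the glutathione-degrading enzyme gene chac1 (-1.65 ± 0.08), the cystine carrier gene slc7a11 (-2.0 ± 0.12) and the tRNA synthetase genes aars1 (-1.49 ± 0.08) and sars1 (-1.05 ± 0.06) fell. The 2 that rose were vegfab (1.15 ± 0.10) and psat1 (0.80 ± 0.13). Of 87 tested genes of the ribosome biogenesis list, 4 rose and 66 fell, with a median log2 difference of -0.40, with 3 members lower by 2-fold or more, among them the helicase gene ddx21 (-1.41 ± 0.10). The 4 that rose, ubtf, ddx47, rcl1 and nop16, did so by at most 0.45 on the log2 scale, and the nop16 call was lost with any single library but serum reduction library 2 left out (adjusted p of 0.0623 to 0.173).

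Lysosomal genes were mostly higher. Of 62 tested genes of the lysosome list, 40 rose and 4 fell, with a median log2 difference of 0.53. The protease genes ctsba (986 CPM with lipid loading, 505 CPM with serum reduction, log2 difference 0.97 ± 0.07) and lgmn (1.16 ± 0.07), the enzyme gene gnsb (1.79 ± 0.14) and the membrane protein gene scarb2a (2.06 ± 0.13) rose. The 4 that fell were proton pump subunits or their accessory, atp6v0ca (-3.25 ± 0.20), atp6ap1a (-0.40 ± 0.11), atp6v1h (-0.29 ± 0.10) and atp6v1c1a (-0.23 ± 0.10). Scaling by total counts ended the calls of atp6v1h and atp6v1c1a (adjusted p = 0.166 and 0.415), and the atp6v1c1a call was also lost with any single library but serum reduction library 1 left out (adjusted p of 0.0605 to 0.195). Of 59 atrophy and autophagy genes tested, 11 rose and 23 fell. With scaling by total counts 17 rose and 20 fell, and 7 rose without lipid loading library 3 or without serum reduction library 3. The muscle ubiquitin ligase genes trim63b (104 CPM with lipid loading, 419 CPM with serum reduction, log2 difference -2.01 ± 0.10) and fbxo32 (-0.45 ± 0.09) and the lysosomal regulator gene tfeb (-3.72 ± 0.23) were lower. In the oxidative stress and metal binding list, 12 of 42 rose and 21 fell. Haem oxygenase, hmox1a (27.1 CPM with lipid loading, 4.1 CPM with serum reduction, log2 difference 2.73 ± 0.19), and sulfiredoxin, srxn1 (2.39 ± 0.18), rose. In contrast gclc, the first enzyme of glutathione synthesis, fell (121 CPM with lipid loading, 516 CPM with serum reduction, log2 difference -2.09 ± 0.08).

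**Figure D4:**
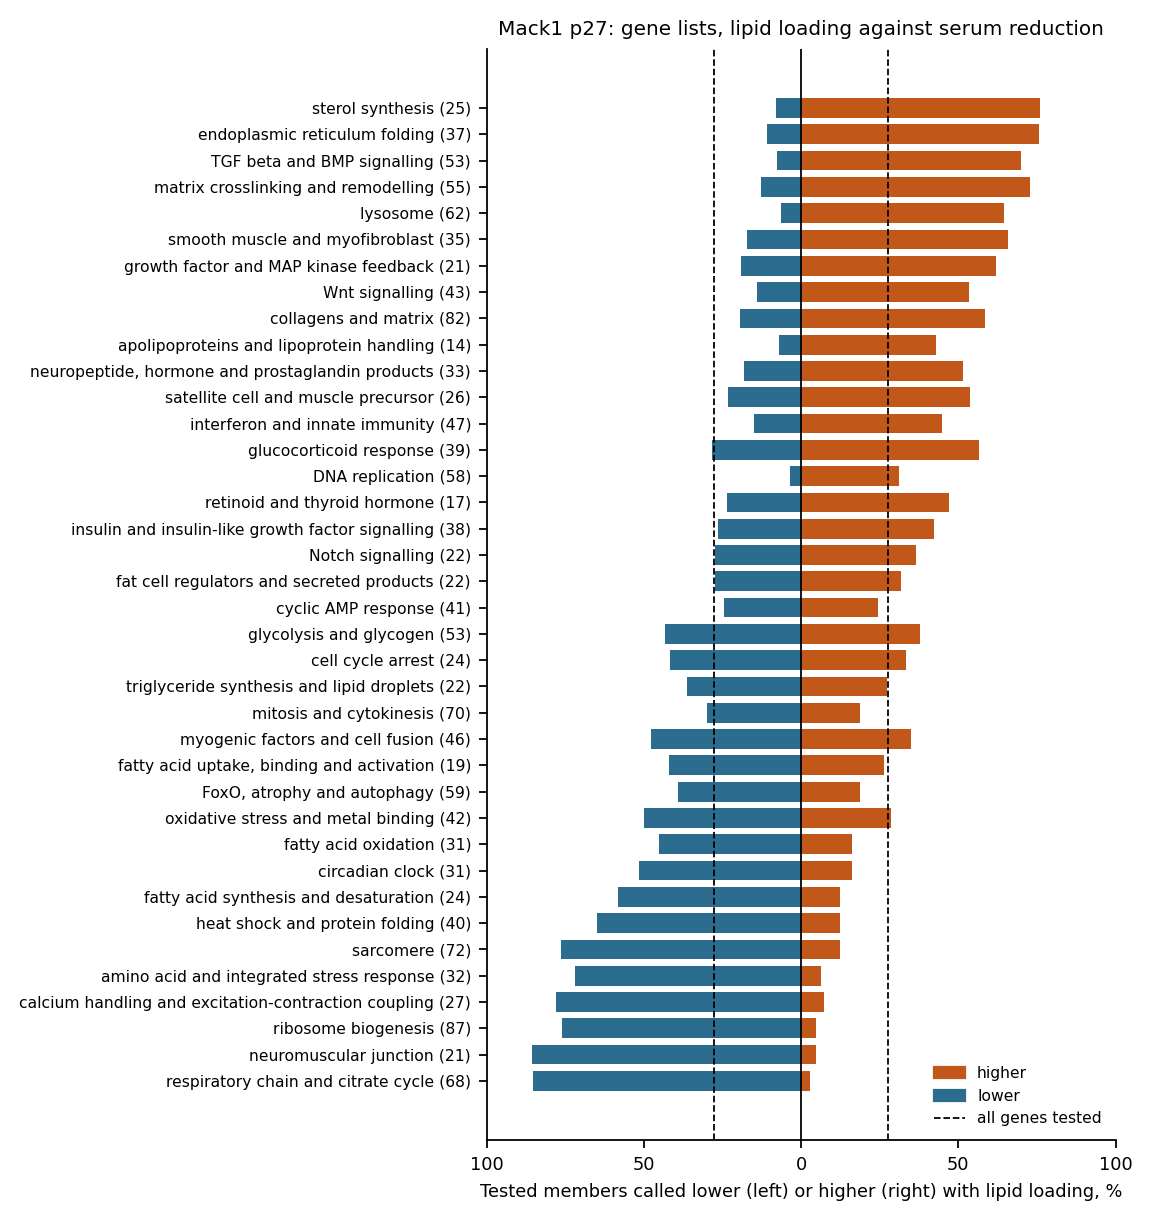
Share of tested members called higher (right, orange) or lower (left, blue) with lipid loading in each list with 10 or more tested members, the number tested in brackets, and dashed lines at the shares over all genes tested (27.5% higher, 27.7% lower). Sterol synthesis and endoplasmic reticulum folding are at the top and the respiratory chain and neuromuscular junction at the bottom.

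Among cell division genes, the share of replication genes that rose and that of mitosis genes that fell were near the shares over all genes. The share of replication genes that fell and that of mitosis genes that rose were below them. Of 58 tested genes of the DNA replication list, 18 rose and 2 fell, with a median log2 difference of 0.37. Thus 31% were higher against 27.5% of all genes, and 3.45% were lower against 27.7%. With scaling by total counts 29 rose and 1 fell, and without lipid loading library 3 the number that rose was 13. The 2 lower ones were orc3 (-0.97 ± 0.25) and pold3 (-0.42 ± 0.16). The pold3 call was lost without lipid loading library 2 or 3 or serum reduction library 2 or 3 (adjusted p of 0.0751 to 0.136), and that of orc3 in a fit of the 6 libraries alone (adjusted p = 0.0656). The helicase subunit gene mcm4, which opens replication origins, measured 29.6, 39.6 and 51.7 CPM in the lipid loading libraries, against 18.8, 16.8 and 14.2 CPM in the serum reduction libraries. All lipid loading libraries were higher, with library 3 the highest and library 1 the lowest of them, and the log2 difference was 1.28 ± 0.14. The licensing inhibitor gmnn (1.80 ± 0.23) and mcm5 (0.83 ± 0.19) also rose, while pcna (79.8 CPM with lipid loading, 69.8 CPM with serum reduction, adjusted p = 0.192) and mcm2 (adjusted p = 0.387) did not pass the test. The pcna difference passed with scaling by total counts (adjusted p = 0.0212), without p77 serum starvation library 1 (adjusted p = 0.0237), and in fits of the 12 p27 libraries (adjusted p = 0.0319) or the 6 libraries alone (adjusted p = 0.0465). Of 70 tested genes of the mitosis and cytokinesis list, 13 rose and 21 fell, with a median log2 difference of -0.19. Thus 18.6% were higher against 27.5% of all genes, and 30% were lower against 27.7%. This balance did not hold with scaling by total counts, where 15 rose and 14 fell (median -0.06), and without lipid loading library 1 it was 12 and 14 (median -0.06). The proliferation marker mki67 measured 27.7, 26.4 and 28.2 CPM in the lipid loading libraries, against 47.2, 46.7 and 46.5 CPM in the serum reduction libraries. All lipid loading libraries were lower (log2 difference -0.77 ± 0.12). The mitotic cyclin gene ccnb1 (-0.99 ± 0.16), the spindle midzone gene prc1b (-2.25 ± 0.31), the contractile ring gene anln (-1.41 ± 0.14) and the phosphatase gene cdc25b (-1.2 ± 0.09) were lower. The genes cdk1 (adjusted p = 0.363), ccna2 (adjusted p = 0.82) and top2a (adjusted p = 0.414) were not called. Separase, espl1 (1.16 ± 0.15), and cks1b (0.73 ± 0.11) were higher. Among arrest genes, 8 of 24 rose and 10 fell, and with scaling by total counts 10 rose and 9 fell. The growth-phase cyclin gene ccnd2a measured 760 ± 27.9 CPM with lipid loading and 187 ± 25.4 CPM with serum reduction (log2 difference 2.03 ± 0.12), the inhibitor genes cdkn1a (-0.49 ± 0.09) and cdkn1bb (-1.58 ± 0.11) and the cyclin ccng1 (2629 CPM with lipid loading, 4766 CPM with serum reduction, -0.86 ± 0.06) were lower. The gene cdkn2a/b, for senescence inhibitors, was higher (0.65 ± 0.20), a call lost without serum reduction library 1 (adjusted p = 0.054).

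Matrix genes were mostly higher with lipid loading. Of 82 tested genes of the collagens and matrix list, 48 rose and 16 fell, with a median log2 difference of 0.75, and the summed level of the list was 75821 to 78787 CPM with lipid loading and 35514 to 42335 CPM with serum reduction. The secreted matrix protein gene tgfbi measured 13390, 14294 and 13819 CPM in the lipid loading libraries, against 1755, 1476 and 1491 CPM in the serum reduction libraries. Every lipid loading library was far above every serum reduction library (log2 difference 3.14 ± 0.13, adjusted p = 5.77e-17). Fibronectin, which links cells to collagen, is encoded by fn1a, which measured 3988, 4322 and 4267 CPM in the lipid loading libraries, against 855, 691 and 763 CPM in the serum reduction libraries. Again all lipid loading libraries were higher (log2 difference 2.45 ± 0.14). Periostin, postnb (4.13 ± 0.13), thrombospondin 4, thbs4b (3.08 ± 0.10), the procollagen processing gene pcolcea (2.87 ± 0.10) and the collagen genes col12a1a (2.78 ± 0.12) and col5a1 (8919 CPM with lipid loading, 2471 CPM with serum reduction, 1.85 ± 0.12) rose. The chains of the main fibrillar collagen moved little, col1a1a by 0.39 ± 0.11 and col1a2 by 0.42 ± 0.08, and the copy col1a1b was not called (adjusted p = 0.576). Of the 16 that fell, the basement membrane chain gene col4a1 measured 1.66, 0.0834 and 1.26 CPM in the lipid loading libraries, against 39, 43.5 and 24.7 CPM in the serum reduction libraries, with lipid loading library 2 at the lowest value. Its partners col4a2 (-3.90 ± 0.21), col4a5 (-2.85 ± 0.58) and col4a6 (-2.67 ± 0.54), named after their values were seen, fell too, as did thbs2a (-4.03 ± 0.14) and fndc1 (-6.86 ± 0.41).

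Enzymes that crosslink and remodel the matrix went the same way. Of 55 tested genes of the matrix crosslinking and remodelling list, 40 rose and 7 fell, with a median log2 difference of 1.04. The lysyl oxidase family gene loxl2a (2396 CPM with lipid loading, 652 CPM with serum reduction, log2 difference 1.88 ± 0.09), the gelatinase gene mmp2 (1.6 ± 0.09), its activator mmp14a (1.35 ± 0.08) and the procollagen protease gene bmp1a (1.96 ± 0.10) rose. The classical lysyl oxidase loxa (-1.45 ± 0.10) and the inhibitor timp2b (-1.51 ± 0.08) fell. Smooth muscle and myofibroblast genes were mostly higher. Of 35 tested genes of the smooth muscle and myofibroblast list, 23 rose and 6 fell, with a median log2 difference of 0.81. Here cnn2 (1025 CPM with lipid loading, 278 CPM with serum reduction, log2 difference 1.88 ± 0.09), tagln (0.81 ± 0.07), lmod1b (1.64 ± 0.11), acta2, smooth muscle actin (0.66 ± 0.18), and the platelet-derived growth factor receptor gene pdgfra (15.1 CPM with lipid loading, 0.84 CPM with serum reduction, log2 difference 4.14 ± 0.23) rose. In the same list cnn1b fell (-2.72 ± 0.23), and the smooth muscle myosin gene myh11a was not called (adjusted p = 0.196).

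Targets and inhibitors of transforming growth factor beta and bone morphogenetic protein signalling were mostly higher. Of 53 tested genes of the TGF beta and BMP signalling list, 37 rose and 4 fell, with a median log2 difference of 0.90. The inhibitory gene smad6b measured 39.4, 52.4 and 51.9 CPM in the lipid loading libraries, against 5.91, 5.65 and 5.34 CPM in the serum reduction libraries, with no overlap and a log2 difference of 3.09 ± 0.16. The targets id1 (1.59 ± 0.19) and id3 (1.83 ± 0.25), the decoy receptor gene bambia (3.28 ± 0.19), the antagonist gene grem2a (3.49 ± 0.21), smad7 (1.75 ± 0.23) and the ligand gene tgfb1a (1.53 ± 0.09) rose. The antagonist nog1 had no count with serum reduction and was at least 246-fold higher. The 4 that fell were bmpr1ba (-3.20 ± 0.17), fstl3 (-1.58 ± 0.21), tgfbr3 (-1.27 ± 0.41) and smad1 (-0.96 ± 0.09), all of them receptors, a receptor-regulated factor or a ligand trap. The tgfbr3 call was lost without lipid loading library 1 (adjusted p = 0.0824) or serum reduction library 1 (adjusted p = 0.0551).

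More Wnt genes rose than fell, and Notch genes were mixed. Of 43 tested genes of the Wnt signalling list, 23 rose and 6 fell, with a median log2 difference of 0.82. The feedback gene axin2, a general Wnt target, measured 88.9, 89.9 and 85.1 CPM in the lipid loading libraries, against 22.6, 23.2 and 25.4 CPM in the serum reduction libraries. Every lipid loading library was above every serum reduction library (log2 difference 1.89 ± 0.09). The receptor gene ror1 (2.65 ± 0.21), the ligand gene wnt7bb (2.71 ± 0.24), the factor genes tcf7 (4.20 ± 0.59) and lef1 (1.23 ± 0.32), and wls, which carries Wnt ligands out of the cell (0.94 ± 0.07), rose. For Notch, 8 of 22 rose and 6 fell. The glycosyltransferase gene lfng, which tunes Notch receptors, measured 64.4, 69 and 64.7 CPM in the lipid loading libraries, against 2.31, 1.89 and 1.5 CPM in the serum reduction libraries. The ranges are far apart (log2 difference 5.11 ± 0.34), and the target heyl was also higher (5.43 CPM with lipid loading, 0.198 CPM with serum reduction, log2 difference 4.76 ± 0.47). The targets hey1 (-1.46 ± 0.14) and her9 (-0.96 ± 0.17) were lower, and the receptor notch3 was slightly higher (0.54 ± 0.12). In the satellite cell list, 14 of 26 rose, among them the syndecan gene sdc3 (2.2 ± 0.19) and egfra (1.73 ± 0.13), and 6 fell, among them cd34 (-2.84 ± 0.25).

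More immune and secreted genes rose than fell. In the interferon and innate immunity list, 21 of 47 tested members rose and 7 fell (median 0.46). The NF-kappa-B regulators nfkbiaa and tnfaip3 (1.73 ± 0.14), the adaptor gene myd88 (0.91 ± 0.12) and the cytokine gene il34 (2.87 ± 0.24) were higher, and the complement gene c6 was lower (-2.17 ± 0.19). Of 33 tested genes for secreted hormones, growth factors and prostaglandin enzymes, 17 rose, among them adma, adrenomedullin (1.65 ± 0.18), kitlga (3.59 ± 0.38) and angptl2a (3.56 ± 0.19), and 6 fell, among them pdgfd (-4.75 ± 0.58) and angptl7 (-4.09 ± 0.62).

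The macrophage and blood markers tested were itgb2 (1.05 ± 0.09), csf1ra (1.15 ± 0.23), csf1rb, cd74a and mpeg1.1, of which itgb2 and csf1ra rose, and 3 of the 9 untested markers (coro1a, gata1a and spi1b) had no count. The summed level of the list was 156 to 171 CPM with lipid loading and 73 to 85.8 CPM with serum reduction. In the neural crest, glia and pigment list, 3 of 9 rose (s100b 2.80 ± 0.53, mlana 1.96 ± 0.67 and csf1ra) and kitb fell (-1.01 ± 0.21), with a summed level of 30.2 to 34 CPM with lipid loading and 15.6 to 19.5 CPM with serum reduction. The mlana call was lost without lipid loading library 1 (adjusted p = 0.0642) or serum reduction library 2 (adjusted p = 0.0551). Of 8 tested endothelial markers, stab2 rose and vwf, cldn5a and fli1 fell. The call of cldn5a was lost without lipid loading library 2 or 3 or serum reduction library 1 or 3 (adjusted p of 0.0712 to 0.105). The call of fli1 was lost without lipid loading library 1 or serum reduction library 1 or 3 (adjusted p of 0.0627 to 0.118). The summed level of that list was 3.84 to 4.73 CPM with lipid loading and 4.8 to 8.17 CPM with serum reduction. None of 4 tested epithelial and 4 tested neuron markers was called, and the epithelial ones summed to 62 to 71.9 CPM with lipid loading and 61 to 75.7 CPM with serum reduction. Of 7 cartilage and bone markers tested, acanb (-2.89 ± 0.32) and phex (-2.56 ± 0.21) fell and none rose, the list summing to 29.9 to 35.3 CPM with lipid loading and 42.2 to 42.6 CPM with serum reduction. The share of these markers that fell, 28.6%, was near the 27.7% of all genes. The share of neural crest, glia and pigment markers that rose was 33.3% against 27.5% of all genes. In the tendon list, thbs4b rose, egr1, xirp2a, fmodb and tnmd fell, and fmoda, thbs4a and xirp2b were not called. The list summed to 1569 to 1598 CPM with lipid loading and 1370 to 1400 CPM with serum reduction. That sum was higher with lipid loading although the median log2 difference of the list was -0.63 (0.01 in a fit of the 12 p27 libraries). It also includes egr1, described above with the cyclic AMP response genes. The fmodb call was lost with any single library but serum reduction library 1 left out (adjusted p of 0.0548 to 0.119), while xirp2b and cd74a passed the test in 6 settings each, among them without serum reduction library 2 (adjusted p = 0.0133 and 0.0451). The part of these markers in the gene groups above was not tested.

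The highest fold changes among named genes at 5 CPM or more in the higher group are given next. Beyond angptl4 and kcne4, the largest rises included gatm, an enzyme of creatine synthesis (8.53 CPM with lipid loading, 0.0451 CPM with serum reduction, log2 difference 7.39 ± 0.88), the carbonic anhydrase gene ca6 (260 CPM with lipid loading, 3.32 CPM with serum reduction, 6.29 ± 0.23), apln, the peptide hormone apelin (19.1 CPM with lipid loading, 0.445 CPM with serum reduction, 5.40 ± 0.32), tnfsf10, a death receptor ligand (5.33 CPM with lipid loading, 0.0592 CPM with serum reduction, 6.41 ± 0.98), and stm, which in zebrafish encodes an otolith matrix protein (36 CPM with lipid loading, 0.95 CPM with serum reduction, 5.23 ± 0.34). The call for the elastic fibre gene emilin1a (5.54 ± 1.14) was lost with DESeq2 (adjusted p = 0.0624). The largest falls included asb10, for an ankyrin repeat and SOCS box protein (0.237 CPM with lipid loading, 43.1 CPM with serum reduction, log2 difference -7.46 ± 0.35), its relative asb14b (-5.56 ± 0.48), the microtubule-associated gene map1aa (-7.33 ± 0.45), the tyrosine breakdown enzyme gene hgd (0.114 CPM with lipid loading, 5.75 CPM with serum reduction, -5.61 ± 0.47) and osbp2b, for an oxysterol-binding protein (-5.87 ± 0.35). By change in CPM, which also depends on transcript length, the largest rises included those of tgfbi, serpinh1b, col5a1, fn1a and col1a2, with actb2, a cytoplasmic actin (14802 CPM with lipid loading, 5746 CPM with serum reduction, 1.37 ± 0.07), flna, the actin crosslinker filamin A (3926 CPM with lipid loading, 1207 CPM with serum reduction, 1.70 ± 0.14), and sparc, a collagen-binding matrix protein (5608 CPM with lipid loading, 2990 CPM with serum reduction, 0.91 ± 0.07). The largest falls in CPM included those of acta1b, ckma, hsp90aa1.1 and unc45b, with desma, the muscle intermediate filament desmin (446 CPM with lipid loading, 4142 CPM with serum reduction, -3.22 ± 0.16), and the intermediate filament gene nes, nestin (939 CPM with lipid loading, 2641 CPM with serum reduction, -1.49 ± 0.09). Of the 8645 called genes, 2318 carry only a locus number in the RefSeq gene table and are counted but not described.

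The other p27 libraries place these differences, as values with no test. Proliferating cells were fed the same growth medium without insulin, IBMX, dexamethasone and lipids, and serum starvation cells were left unfed after confluence (3 libraries each). The droplet coat gene plin2 averaged 827 ± 28.3 CPM with lipid loading, 166 ± 1.48 in proliferation, 60 ± 10.8 with serum starvation and 124 ± 4.65 with serum reduction. Lipid loading was highest of the 4, and the lipase inhibitor angptl4, at 228 ± 7.27 CPM with lipid loading, 2.08 ± 0.172 in proliferation, 8.54 ± 1.45 with serum starvation and 6.19 ± 2.09 with serum reduction, and fkbp5, at 81.1 ± 5.05 CPM with lipid loading, 15.1 ± 1.41 in proliferation, 11.7 ± 1.73 with serum starvation and 13 ± 1.77 with serum reduction, had the same top rank. By contrast spry4 averaged 72 ± 7.07 CPM with lipid loading, 134 ± 7.83 in proliferation, 20.5 ± 2.86 with serum starvation and 11.1 ± 1.68 with serum reduction, highest in the proliferating cells. Lipid loading and proliferation were both above serum starvation and serum reduction in spry4. The same held for axin2, at 88 ± 2.51 CPM with lipid loading, 81.6 ± 2.11 in proliferation, 30.9 ± 4.1 with serum starvation and 23.7 ± 1.44 with serum reduction. The lipogenic partner mid1ip1a averaged 24.7 ± 2.05 CPM with lipid loading, 34.7 ± 1.73 in proliferation, 347 ± 7.06 with serum starvation and 376 ± 55 with serum reduction, so lipid loading and proliferation were low. The part of serum or FGF2 in these orders was not tested. For myog the means were 31.8 ± 2.57 CPM with lipid loading, 1.89 ± 0.237 in proliferation, 413 ± 4.65 with serum starvation and 205 ± 5.7 with serum reduction. Lipid loading cells were thus well below the other confluent groups and above the proliferating cells, and acta1b, at 2884 ± 354 CPM with lipid loading, 16 ± 5.25 in proliferation, 10609 ± 313 with serum starvation and 11355 ± 1846 with serum reduction, showed the same order. The chaperone gene unc45b averaged 213 ± 23 CPM with lipid loading, 17.3 ± 0.719 in proliferation, 1335 ± 65.3 with serum starvation and 3444 ± 445 with serum reduction, with serum starvation between the media compared here. Of the matrix genes, tgfbi averaged 13834 ± 452 CPM with lipid loading, 1272 ± 101 in proliferation, 402 ± 73.6 with serum starvation and 1574 ± 157 with serum reduction. Periostin, postnb, averaged 975 ± 31.2 CPM with lipid loading, 3.78 ± 1.18 in proliferation, 13 ± 1.82 with serum starvation and 55.7 ± 3.31 with serum reduction, and both were highest with lipid loading. The division marker mki67 averaged 27.4 ± 0.895 CPM with lipid loading, 210 ± 5.98 in proliferation, 60.1 ± 0.62 with serum starvation and 46.8 ± 0.31 with serum reduction, which puts lipid loading lowest.

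At p77, labelled post_immortalization, the same 2 media were compared in 3 libraries each, and the difference at p77 minus the difference at p27 was tested within the same fit. No library is shared between the 2 stages. At p77, 4591 genes (29.3%) were higher and 4388 (28.0%) lower with lipid loading. Of the 4307 genes higher at p27, 3291 (76.4%, and 71.7% of those higher at p77) were also higher at p77 and 63 were lower. Of the 4338 lower at p27, 3450 (79.5%, and 78.6% of those lower at p77) were also lower and 89 were higher. The size differed for 2085 genes (13.3%), of which 1453 (9.26%) had a more positive and 632 (4.03%) a more negative difference at p77. Of these, 1186 had a smaller and 451 a larger difference at p77 in the direction called at p27, smaller including those that changed sign, and 448 had not been called at p27.

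Of all lists, the sarcomere list had the highest share of members with a more positive difference at p77, 47 of 72 tested, against 9.26% of all genes, and its median log2 difference was -1.12 at p77 and -2.03 at p27. The calcium pump gene atp2a1 averaged 1052 ± 76.6 CPM with lipid loading and 1743 ± 46.1 CPM with serum reduction at p77, a log2 difference of -0.73 ± 0.13 at p77 and -2.90 ± 0.14 at p27. The light chain gene myl13 had a log2 difference of 0.58 ± 0.13 at p77 and -2.96 ± 0.14 at p27. Of 70 mitosis genes tested, 48 rose and 1 fell at p77, against 13 and 21 at p27, and 33 had a more positive difference at p77. For mki67 the log2 difference was 0.15 ± 0.11 at p77 and -0.77 ± 0.12 at p27, the p77 value not being called (adjusted p = 0.28; difference between stages 0.92 ± 0.16, adjusted p = 0.000207). Fatty acid oxidation genes were more positive at p77 in 15 of 31, with cpt1b at 4.60 ± 0.36 at p77 and 0.83 ± 0.29 at p27. Sterol synthesis genes were less raised, 11 of 25 having a more negative difference at p77 and none a more positive one. For sqlea it was 3.98 ± 0.22 at p77 and 5.07 ± 0.23 at p27. The lipid genes plin2 (3.13 ± 0.13 at p77, 2.73 ± 0.13 at p27), angptl4 (4.79 ± 0.17 at p77, 5.20 ± 0.17 at p27) and lpla (1.48 ± 0.11 at p77, 1.63 ± 0.11 at p27) did not pass the test of the difference between stages (adjusted p = 0.15, 0.255 and 0.59). Genes with the smallest p for a more negative difference at p77 included angptl2a (0.52 ± 0.19 at p77, 3.56 ± 0.19 at p27), serpinf1, a secreted inhibitor of vessel growth (0.32 ± 0.13 at p77, 2.48 ± 0.14 at p27), and col12a1a (0.99 ± 0.11 at p77, 2.78 ± 0.12 at p27). Those with the smallest p for a more positive one included myl13, the laminin receptor gene bcam (-0.40 ± 0.07 at p77, -2.22 ± 0.08 at p27), thbs2a (-1.12 ± 0.12 at p77, -4.03 ± 0.14 at p27) and cav3 (-0.99 ± 0.08 at p77, -2.51 ± 0.08 at p27).

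**Figure D5:**
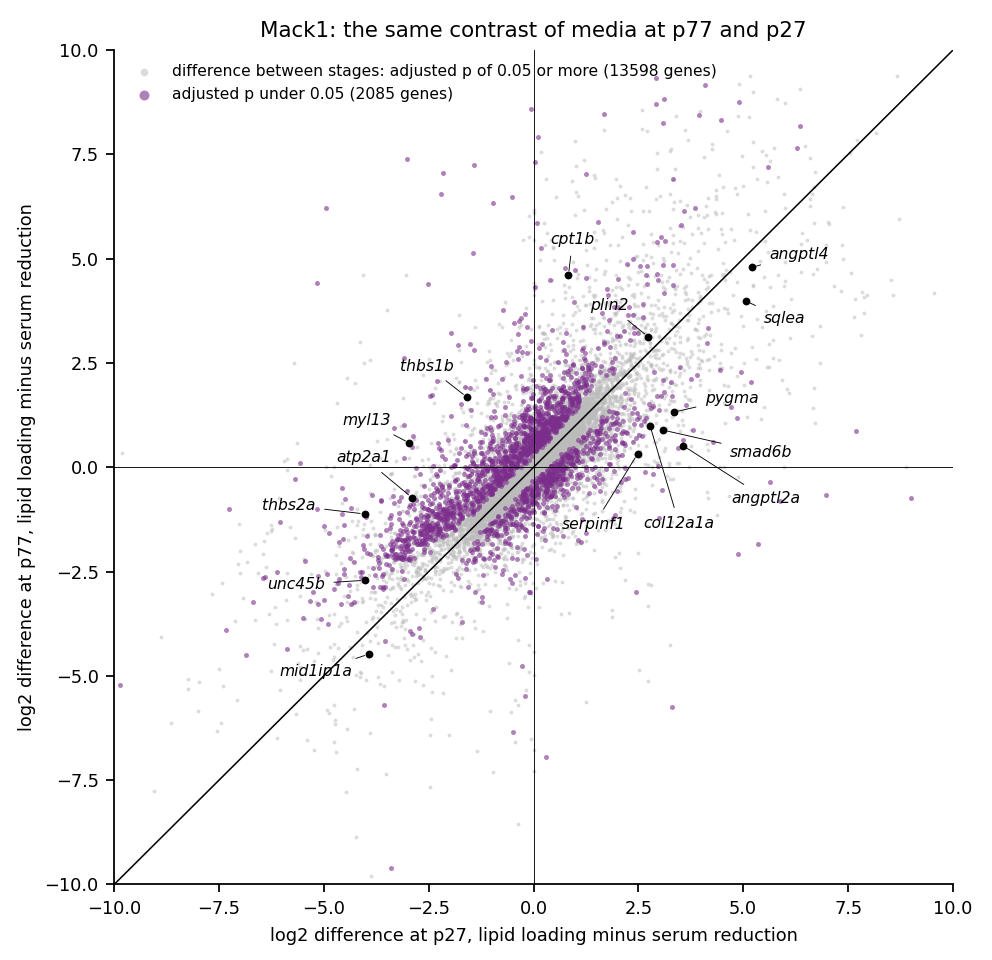
Log2 difference of lipid loading over serum reduction at p77 (vertical axis) against p27 (horizontal axis) for each tested gene, with genes whose difference was not the same at both stages (adjusted p below 0.05) in purple and the line of equal differences in black. 3 genes beyond 10 on either axis are not drawn. Muscle genes such as unc45b, atp2a1 and myl13 lie above the line on the left, and smad6b, serpinf1 and col12a1a below it on the right.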

How the data were processed

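Poly(A) RNA was sequenced as paired reads of 150 nt from libraries that do not keep strand, per the labels' protocols, so reads of a gene and an antisense partner cannot be told apart. The authors deposited a table of raw gene counts and a table of normalized signal. Dividing each library's raw counts by a single size factor gives the normalized values. The normalized values were used only in the alternative fits with limma, and the main fit used the raw counts. FastQC, STAR, Salmon 1.10.1 and DESeq2 are named in the submitters' processing notes without their roles, and neither the genome build nor the annotation is given in the sources used here. All 24189 gene identifiers matched the RefSeq gene table of assembly fScoSco1.1, 14498 of them with a symbol and 9691 with a locus number only.

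Differences were computed from the deposited raw counts with edgeR 4.0.16 (quasi-likelihood test, R 4.3.3) over all 24 Mack1 libraries in 8 groups, after edgeR's low-count filter (15683 genes left) and TMM scaling, with Benjamini-Hochberg adjustment over all genes tested and a threshold of 0.05. The stage difference was tested as an interaction in the same fit, which had 16 residual degrees of freedom and a common biological coefficient of variation of 0.137. The 47 gene lists hold 1772 distinct genes, of which 1498 passed the filter. The members, the gene lists and the comparison were chosen with earlier results of these data known. Genes to be named were picked by set rules. Key members of each list could be named, as could up to 6 called members per list with the smallest p. Any member of a list with at most 8 tested could be named, and not all of them are. The rules also took the 12 highest and 12 lowest fold changes among genes with a symbol, 5 CPM or more and no overlap. Last came the 10 largest changes in mean CPM in each direction, and 8 genes in each direction for the stage difference. For a gene with no count in a group, the fold bound used a floor of 3 counts in that group's total, and ratios with 1 to 3 counts carry exact 95% intervals that cover counting error only. Replicates of a group differed by more than sampling noise (chi-square per degree of freedom of 7.14 to 27.1). Libraries with the same replicate number did not deviate together from their group means, which cannot show whether the cultures were paired. The main fit used no pairing. Scripts were tested on simulated data. Alternatives were DESeq2 1.42.0, limma 3.58.1, other scaling and filters, fewer libraries, a replicate block and leaving out each library in turn. A few genes that these rules pick are not reported here.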

Additional observations from a re-analysis of the deposited data

Results flagged for a closer look

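For 148 of the 351 genes named above the lipid loading minus serum reduction difference was not the same at p77 and p27. This was judged by the interaction term of the edgeR fit (adjusted p below 0.05). Over all genes tested the share was 13.3%. Some of the named genes were picked by the p of this same term, so the count of 148 is not a result about them. Values are the log2 difference at p77 minus that at p27, so a positive value is a more positive difference at p77. DNA replication genes had values of 1.6 for orc3, 1.17 for mcm2, 0.92 for pold3 and 0.52 for pcna. FoxO, atrophy and autophagy genes had values of 1.56 for tfeb and 0.56 for trim63b. TGF beta and BMP signalling genes had values of 2.39 for bmpr1ba, -0.93 for tgfb1a, -1.08 for grem2a, -1.24 for bambia, -1.75 for id3 and -2.19 for smad6b. Wnt signalling genes had values of 2.11 for wnt7bb and -0.57 for axin2. Amino acid and integrated stress response genes had values of -0.32 for sars1, -0.42 for asns, -0.56 for atf4b and -1.02 for vegfab. Apolipoproteins and lipoprotein handling genes had values of 1.56 for soat1, 0.62 for mylipa and -1.64 for abca1b. Calcium handling and excitation-contraction coupling genes had values of 2.17 for atp2a1, 1.52 for cav3, 0.99 for srl and 0.58 for ryr1b. In the cell cycle arrest list it was 0.89 for cdkn1a. Collagens and matrix genes had values of 5.78 for fmoda, 2.91 for thbs2a, 2.35 for fndc1, -0.41 for col1a2, -0.59 for pcolcea, -0.64 for sparc, -0.99 for thbs4b, -1.79 for col12a1a and -2.16 for serpinf1. Cyclic AMP response genes had values of 2.55 for sik1, 2.05 for nr4a1 and 1.31 for crema. Endoplasmic reticulum folding genes had values of -0.33 for atf6 and -0.64 for xbp1. In the fat cell regulators and secreted products list it was -0.65 for srebf1. Fatty acid oxidation genes had values of 3.77 for cpt1b, 1.15 for pdk4, 1.1 for ppargc1a, 0.63 for cpt1ab and 0.30 for acadm. Fatty acid synthesis and desaturation genes had values of 1.12 for tecra, 0.85 for hacd1, -0.45 for scdb, -0.56 for mid1ip1a, -0.73 for scd and -0.80 for aclya. Fatty acid uptake, binding and activation genes had values of 3.57 for fabp4a and 0.72 for fabp3. Glucocorticoid response genes had values of 1.16 for crispld2 and 1.06 for tsc22d3. Glycolysis and glycogen genes had values of 1.36 for ckma, 1.18 for ckmb, 1.00 for pfkma, 0.57 for ldha, 0.54 for gbe1b, -1.03 for gapdh, -1.31 for pgam2 and -2.02 for pygma. Growth factor and MAP kinase feedback genes had values of 0.68 for fgfr1a, -0.43 for etv5a, -0.45 for spry1 and -0.68 for dusp6. Heat shock and protein folding genes had values of 1.43 for hspa1b, 1.30 for unc45b, 1.25 for bag3, 0.96 for hsp90aa1.1, 0.84 for hspb8, 0.81 for hspa8b and 0.70 for hspb1. In the insulin and insulin-like growth factor signalling list it was 1.70 for grb14. Interferon and innate immunity genes had values of 0.93 for c6 and -1.14 for tnfaip3. Matrix crosslinking and remodelling genes had values of 1.54 for loxa, -0.46 for mmp14a, -0.48 for mmp2, -0.48 for timp2b and -0.68 for loxl2a. Mitosis and cytokinesis genes had values of 2.70 for prc1b, 1.79 for anln, 1.62 for ccnb1, 1.22 for ccna2, 1.05 for cdk1, 0.92 for mki67, 0.81 for top2a and 0.70 for cdc25b. Myogenic factors and cell fusion genes had values of 1.6 for smyd1a, 1.19 for smyd1b, 1.15 for myog, 1.05 for klhl31, 0.96 for mef2aa, -0.31 for mef2cb and -0.62 for itgb1a. Neuromuscular junction genes had values of 1.76 for dtna, 1.23 for chrnd, 1.05 for chrna1, 1.04 for chrne and 1.01 for dmd. In the neuropeptide, hormone and prostaglandin products list it was -3.04 for angptl2a. In the oxidative stress and metal binding list it was 0.93 for gclc. Respiratory chain and citrate cycle genes had values of 0.93 for idh2 and 0.39 for pdha1a. In the ribosome biogenesis list it was -0.95 for ubtf. Sarcomere genes had values of 6.78 for tnnc1a, 3.53 for myl13, 2.38 for myom3, 2.29 for tnnt2a, 1.96 for mybpc3, 1.93 for tnnt1, 1.59 for myom1b, 1.43 for tpm2, 1.30 for neb, 1.28 for tnnt3a, 1.21 for actn3b, 1.15 for nebl, 1.09 for acta1b, 1.05 for ttn.2, 0.92 for ttn.1, 0.79 for myot, -0.58 for flncb, -1.68 for mylpfa and -1.96 for acta1a. Satellite cell and muscle precursor genes had values of 1.05 for cd34 and -0.59 for egfra. Smooth muscle and myofibroblast genes had values of -0.55 for tagln, -0.57 for lmod1b, -1.05 for acta2, -1.16 for pdgfra and -1.34 for cnn1b. Sterol synthesis genes had values of -0.68 for msmo1, -0.74 for hmgcra, -1.09 for sqlea and -1.36 for insig1. Among the other named genes it was 3.43 for map1aa, 2.86 for tnmd, 1.90 for kitb, 1.83 for bcam, 1.51 for osbp2b, 1.37 for ca6, 1.06 for desma, 0.99 for phex, -0.39 for itgb2 and -1.34 for csf1ra.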

How the results depend on the processing

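Under 18 alternative settings the count of changed genes ran from 7734 (without serum reduction library 2) to 9341 (without p77 serum starvation library 1), that of higher genes from 3725 to 5258 and that of lower genes from 3648 to 4678, and 87.9 to 100% of the genes called stayed called. The count of genes with a stage difference ran from 1714 to 2868 over a different set of settings. Fits of p27 libraries alone do not give it, and leaving out each p77 lipid loading or serum reduction library was added. None of these counts moved by more than 1.5 times. DESeq2 called 8788 genes, limma with a pseudocount of 1 called 8660 and scaling by total counts called 8906, split into 5258 higher and 3648 lower. Of 351 named genes, 314 kept their side of the threshold in every setting that tested them and 37 crossed it in at least 1, none with a change of direction. The cebpb difference, not called, passed in 4 fits with fewer libraries or a replicate block (adjusted p of 0.00834 to 0.0165). With limma at a pseudocount of 1, the calls lost included those of ckmb, eno3, acta2 and cpt1b (adjusted p = 0.125, 0.217, 0.0558 and 0.191). Of 1692 list counts, 54 moved by more than 1.5 times. The medians of the glycolysis and FoxO lists changed sign with scaling by total counts (0.07 and 0.02). Libraries with the same number did not deviate together (correlations of -0.115, -0.0465 and -0.029 over 10422 genes). A replicate block over all Mack1 libraries gave 8456 calls, and a replicate block over the 6 libraries gave 8810. Depth was lower with lipid loading, so genes near the filter are less precise there. With 3 libraries against 3, a permutation test of 1 gene cannot go below p = 0.1.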
